A study of Mus musculus with 12 samples.

Results

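The genes described here are 10 interferon-inducible GTPases, 5 of them guanylate-binding proteins (*Gbp2*, *Gbp3*, *Gbp4*, *Gbp5* and *Gbp7*) and 5 immunity-related GTPases (*Igtp*, *Irgm1*, *Irgm2*, *Iigp1* and *Ifi47*). They were taken by symbol from the 56691 mouse genes of the count table. The list was chosen by gene family, with the measured differences between combination therapy and isotype in view. All 10 passed a filter of at least 30 reads summed over the 12 samples, as did 15138 genes in all.

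The cells were splenic CD4+ T cells of mice named Tg4 Nr4a3-Tocky IL-10 GFP, which carry a T cell receptor transgene specific for a myelin basic protein (MBP) peptide, a fluorescent Timer protein that reports *Nr4a3* transcription and a GFP reporter of *Il10*. Every mouse, controls included, had all 3 alleles, received 4 mg/kg of the peptide [4Y]-MBP and, 24 h later, an antibody, followed after 30 min by 0.4 mg/kg of the peptide. Spleens were taken 12 h after that second dose. Of the 4 groups of 3 mice each, isotype received rat IgG1 with rat IgG2a, anti-Lag3 received clone C9B7W, anti-PD-L1 received clone MIH5, and the group called CB (co-blockade) received both blocking antibodies. The sort kept cells positive for both the blue and the red form of Timer and negative for markers of other lineages, CD11b and CD8 among them. The samples are thus cells that had already signalled to *Nr4a3*, and cells without that signal were not sequenced. Mice of both sexes were used, and the labels give neither age nor sex for a mouse. Each condition was stained with a CD4 antibody of its own dye, so dye and treatment cannot be told apart. Cells were sorted in batches of 4 that pooled the conditions, and no label says which mice shared a batch.

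Interferon-inducible GTPases are among the transcripts most strongly induced by interferon-γ, and many of them also respond to type I interferon. Guanylate-binding proteins assemble on the vacuoles and membranes of intracellular pathogens and promote inflammasome activation. Among the immunity-related GTPases, Irgm1, Irgm2 and Igtp sit on the cell's own membranes and hold effector members such as Iigp1 inactive there. In CD4+ T cells, Irgm1 is known for keeping expanding cells alive when they are exposed to interferon-γ.

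In interferon-responsive promoters 2 short sequences recur, the gamma-activated site (GAS), through which interferon-γ acts, and the interferon-stimulated response element (ISRE), which binds interferon regulatory factors (IRFs). RefSeq promoter windows of GRCm38.p6, from 250 bases before to 50 after a transcription start, were present for 8 of the 10 genes. *Gbp4* and *Iigp1* had none in the table. The GAS was searched as TTCNNNGAA, which reads the same on both strands, and the ISRE as GAAANNGAAA or TTTCNNTTTC. These 8 genes have 9 windows, since *Gbp3* has 2. An ISRE was found in 7 of the 9 windows (77.8%), each of a different gene, and in 3.44% of all 32851 windows. A GAS was found in 4 of the 9 (44.4%; *Gbp5*, *Gbp7*, *Igtp* and *Irgm2*) and in 8.30% of all windows. The window of *Ifi47* held neither. No GAS match overlapped an ISRE match, whereas in *Gbp3* and *Irgm1* a pair of ISRE matches overlapped each other. A match describes the letters only and was not tested as a binding site.

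**Figure D1:**
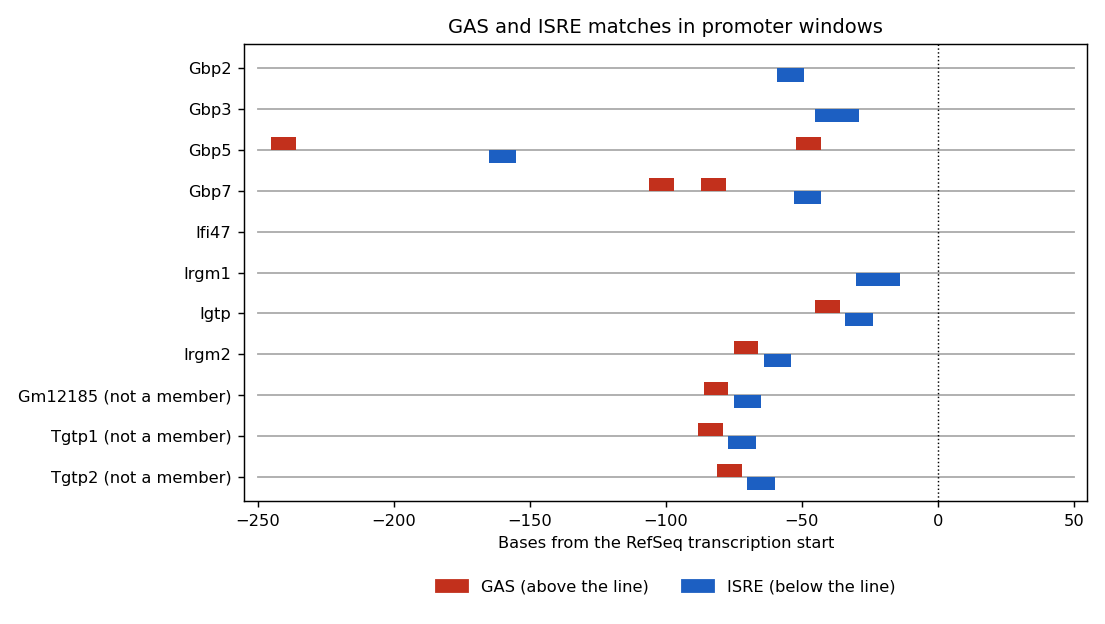
Positions of GAS matches (red, above each line) and ISRE matches (blue, below) in bases from the RefSeq transcription start, for the 8 members with a window and for 3 related genes. The GAS and the ISRE lie 2 bases apart in *Igtp*, *Irgm2*, *Gm12185*, *Tgtp1* and *Tgtp2*, *Ifi47* has neither, and the second window of *Gbp3*, which has none, is not drawn.

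The windows of 5 members, shown because they hold both motifs (*Igtp*, *Irgm2* and *Gbp5*), a single ISRE (*Gbp2*) or overlapping ISREs (*Irgm1*), are printed 5′ to 3′ on the gene's strand, with GAS and ISRE matches in capitals. They are *Igtp* (chr11:58199306-58199605, plus strand), *Irgm2* (chr11:58214727-58215026, plus), *Gbp5* (chr3:142496684-142496983, plus), *Gbp2* (chr3:142620413-142620712, plus) and *Irgm1* (chr11:48871371-48871670, minus).
Igtp: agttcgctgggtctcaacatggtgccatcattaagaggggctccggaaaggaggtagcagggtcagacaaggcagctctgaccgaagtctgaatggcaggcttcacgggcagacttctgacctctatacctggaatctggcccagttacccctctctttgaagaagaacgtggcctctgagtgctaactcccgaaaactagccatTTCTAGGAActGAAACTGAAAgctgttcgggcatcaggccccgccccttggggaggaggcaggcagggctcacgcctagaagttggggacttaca
Irgm2: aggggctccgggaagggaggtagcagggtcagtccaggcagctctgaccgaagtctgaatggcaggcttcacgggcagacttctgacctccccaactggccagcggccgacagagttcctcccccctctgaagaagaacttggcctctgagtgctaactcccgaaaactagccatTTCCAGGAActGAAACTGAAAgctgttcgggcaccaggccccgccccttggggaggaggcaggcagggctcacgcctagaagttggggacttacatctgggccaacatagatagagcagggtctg
Gbp5: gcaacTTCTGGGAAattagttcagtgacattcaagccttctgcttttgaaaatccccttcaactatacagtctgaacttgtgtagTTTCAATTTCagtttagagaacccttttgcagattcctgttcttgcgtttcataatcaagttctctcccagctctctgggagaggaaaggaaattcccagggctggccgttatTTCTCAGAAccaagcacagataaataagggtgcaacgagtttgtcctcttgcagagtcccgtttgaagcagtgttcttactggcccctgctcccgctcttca
Gbp2: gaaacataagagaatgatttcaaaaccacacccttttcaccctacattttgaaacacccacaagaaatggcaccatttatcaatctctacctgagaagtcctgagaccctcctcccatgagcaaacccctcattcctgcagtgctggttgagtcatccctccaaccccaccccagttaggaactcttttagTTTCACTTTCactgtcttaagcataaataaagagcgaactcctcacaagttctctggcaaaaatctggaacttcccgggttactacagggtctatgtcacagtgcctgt
Irgm1: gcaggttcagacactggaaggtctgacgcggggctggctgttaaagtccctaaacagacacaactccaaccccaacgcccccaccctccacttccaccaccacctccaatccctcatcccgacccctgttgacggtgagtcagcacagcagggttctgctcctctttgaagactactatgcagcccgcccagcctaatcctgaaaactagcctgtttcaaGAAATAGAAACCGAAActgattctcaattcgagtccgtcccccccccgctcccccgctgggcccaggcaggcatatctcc
In *Igtp* the GAS began 45 bases and the ISRE 34 bases before the start, and in *Irgm2* they began 75 and 64 bases before it. The longest run of bases that these windows share was 61 bases. *Gbp2* held 1 ISRE, 59 bases before the start, and *Gbp5* held an ISRE between 2 GAS matches.

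A GAS followed by an ISRE with 2 bases between them was found in 5 of the 32851 windows (0.0152%), and the reverse order with the same gap in 0 windows. All 5 belong to immunity-related GTPases of chromosome 11, of which *Igtp* and *Irgm2* are members. This arrangement was looked for after the windows had been read. The 21 bases of each are printed on the gene's strand, with the motifs in capitals and the gap in lower case, at chr11:58199511-58199531 (*Igtp*), chr11:58214902-58214922 (*Irgm2*), chr11:48927248-48927268 (*Gm12185*), chr11:48992314-48992334 (*Tgtp1*) and chr11:49064273-49064293 (*Tgtp2*).
Igtp: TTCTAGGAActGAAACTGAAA
Irgm2: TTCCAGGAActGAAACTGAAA
Gm12185: TTCCAGGAAtaGAAAGTGAAA
Tgtp1: TTCCAGGAAtcGAAACTGAAA
Tgtp2: TTCCAGGAAtcGAAACCGAAA
*Irgm2* differed from *Igtp* at 1 of the 21 bases, *Tgtp1* at 3, and *Gm12185* and *Tgtp2* at 4 each.

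By the GENCODE annotation of GRCm38, *Gbp5* (142493978 to 142522344), *Gbp7*, *Gbp3* and *Gbp2* (142620602 to 142638008) lie in that order on the plus strand of chromosome 3. *Gbp4* lies on the minus strand of chromosome 5, from 105115767 to 105139586. *Irgm1* (48861968 to 48871683, minus strand), *Ifi47* (49076587 to 49096974), *Igtp* (58199556 to 58207591) and *Irgm2* (58199618 to 58222782) are on chromosome 11, and *Iigp1* is on chromosome 18. One annotated transcript of *Irgm2* begins inside *Igtp*, and these genes share 162 exonic bases on the same strand, 8.01% of those of *Igtp*. *Gbp7* shares 637 exonic bases (11.3%) with the pseudogene *Gm43802*, and *Ifi47* shares 111 with *Olfr56*. Only uniquely mapped reads were counted, so reads that fit several places are missing from these counts. How reads in exons shared by overlapping genes were assigned is not given in the sources used here, and the counts are uncertain to that extent.

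Levels are given as CPM, read counts scaled to a common library size by TMM. Reads on genes numbered 16449400 to 22151000 per sample. The gate was checked against markers: the 7 CD4+ T cell markers summed to 2180 to 2273 CPM in isotype, 2097 to 2168 with anti-Lag3, 2010 to 2271 with anti-PD-L1 and 1873 to 1913 in CB. *Nr4a3*, the gene of the sort reporter, is 1 of the 7. It was at 29.4 to 33.1 CPM in isotype, 26.8 to 31.8 with anti-Lag3, 8.48 to 28.3 with anti-PD-L1 and 13.7 to 31.4 in CB. Of the 12 myeloid markers *Cd14* and *Xcr1* had no reads, and the sum was 56.1 to 89.6 CPM over all samples, mostly *Cst3*. The 8 B cell markers summed to 2.72 to 32.04 CPM, the 6 NK cell markers to 0.697 to 6.62, both overlapping between all groups. The 4 platelet markers summed to 0 to 3.31 CPM, with anti-Lag3 (1.73 to 1.87) above isotype (0.127 to 1.48). The 2 CD8 markers summed to 40.9 to 45.3 CPM in isotype, 29.2 to 46.4 with anti-Lag3, 24.6 to 30.5 with anti-PD-L1 and 25.0 to 33.2 in CB. Nearly all of this was *Cd8b1*, and *Cd8a* was at most at 3.24 CPM in a sample. Of the 4 stromal and endothelial markers nearly all CPM were *Pecam1*. Their sum was 72.8 to 81.4 in isotype, 61.1 to 93.6 with anti-Lag3, 53.8 to 63.7 with anti-PD-L1 and 34.2 to 51.6 in CB. *Col1a1*, *Col3a1* and *Cdh5* had at most 59, 37 and 39 reads in a sample. The sum therefore follows *Pecam1* and does not by itself measure stromal or endothelial cells. Reads are counted at 3′ ends and not per length, so levels are compared between groups and not between genes. In these bulk samples, more cells with a transcript and more transcript per cell cannot be told apart.

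All 10 genes had their lowest group mean in isotype. The highest mean was in CB for 7 and in anti-Lag3 for *Gbp3*, *Gbp7* and *Irgm2*. With either antibody alone all 10 log2 fold changes against isotype were above 0, beside 48.4% (anti-PD-L1) and 49.4% (anti-Lag3) of all genes, but 0 of the 10 passed the test in either comparison. The tests of a single antibody use the same 3 isotype samples as the comparison by which the members were known, and so are not independent of the choice of members.

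**Figure D2:**
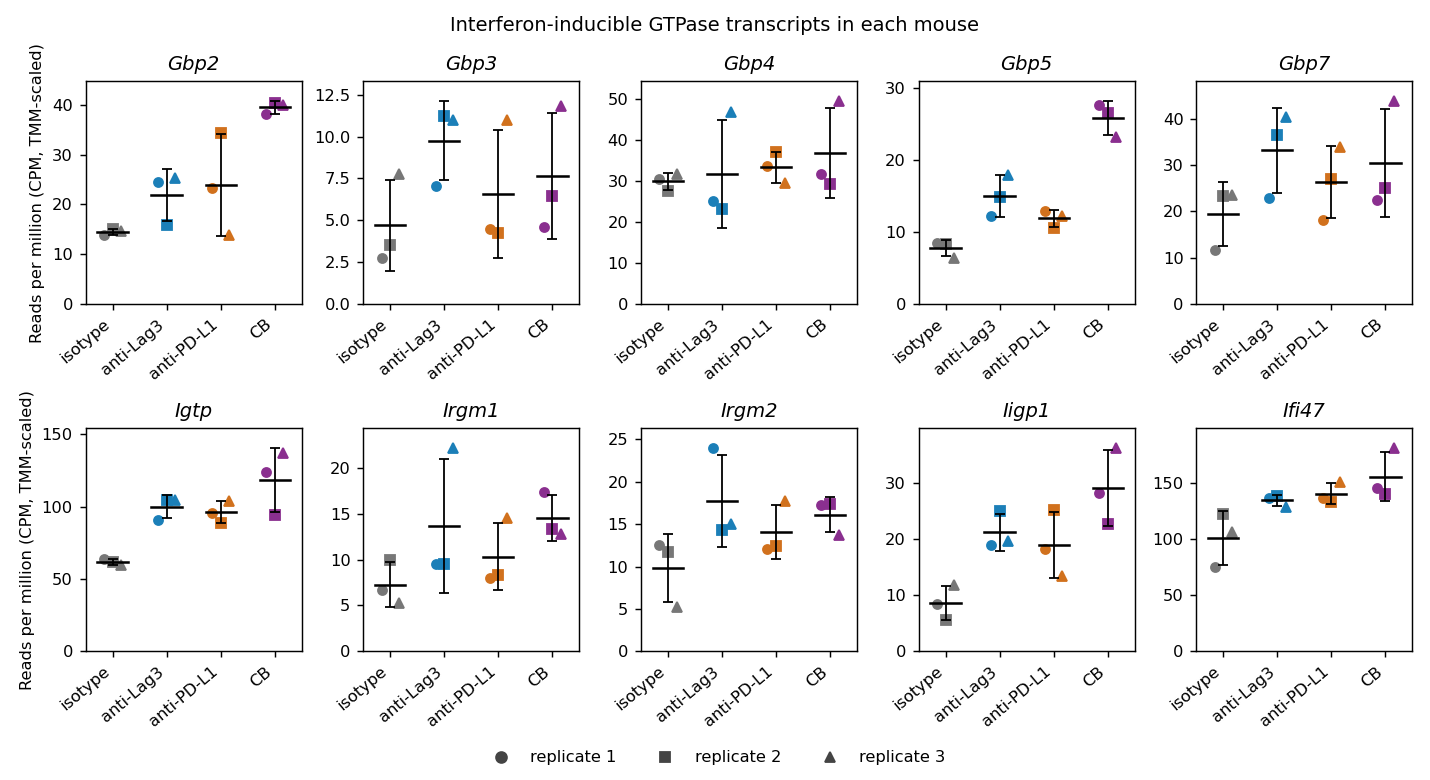
CPM (TMM-scaled) of each GTPase in every mouse, with symbols for the replicate number, a line for the group mean and bars for the SD (n = 3). In *Gbp5*, *Igtp*, *Iigp1* and *Ifi47* all 6 samples given a single antibody lie above all 3 isotype samples, and in *Gbp2* and *Gbp5* the 3 CB samples lie above every other sample.

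*Igtp*, a regulatory GTPase of the endoplasmic reticulum, had the clearest difference with each antibody alone. It was at 63.6, 61.8 and 59.8 CPM in isotype, 90.5, 105 and 105 CPM with anti-Lag3, 95.6, 88.8 and 104 CPM with anti-PD-L1 and 124, 94.2 and 137 CPM in CB. All 9 samples with a blocking antibody were above the 3 isotype samples, and the antibody groups overlapped one another. The log2 fold change was 0.69 ± 0.14 (SE) with anti-Lag3 and 0.64 ± 0.14 with anti-PD-L1, which are ratios of 1.62 and 1.56. The adjusted p was 0.496 and 0.117 by the quasi-likelihood test of edgeR (Benjamini-Hochberg). *Igtp* passed in both comparisons by DESeq2's Wald test (adjusted p = 0.0168 and 0.0165, beside 0.0385% and 0.234% of all genes called higher) and by edgeR without the filter on reads (0.00723 and 0.0131, beside 0.0532% and 0.102%). With a fit that used the replicate number as a block, these were the 3 of 22 alternatives in which it passed. None of the fits that left out a sample was among them. Over all alternatives its adjusted p ran from 0.00723 to 1 with anti-Lag3 and from 0.0131 to 0.611 with anti-PD-L1.

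*Iigp1*, an effector GTPase that loads onto pathogen vacuoles, had the largest log2 fold change of the 10 with each antibody. It was at 8.40, 5.64 and 11.8 CPM in isotype, 19.0, 25.0 and 19.7 CPM with anti-Lag3, 18.3, 25.1 and 13.3 CPM with anti-PD-L1 and 28.2, 22.7 and 36.2 CPM in CB. Isotype did not overlap any other group, and the other groups overlapped. The log2 fold change was 1.30 ± 0.31 (SE) with anti-Lag3, a ratio of 2.46, and 1.13 ± 0.31 with anti-PD-L1, a ratio of 2.19, with adjusted p of 0.554 and 0.313 (edgeR).

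*Gbp5*, which promotes assembly of the NLRP3 inflammasome, was at 8.45, 8.36 and 6.46 CPM in isotype, 12.2, 14.9 and 18.0 CPM with anti-Lag3, 12.9, 10.6 and 12.3 CPM with anti-PD-L1 and 27.7, 26.6 and 23.2 CPM in CB. The single antibodies overlapped each other and lay between isotype and CB. The log2 fold change against isotype was 0.95 ± 0.29 (SE) with anti-Lag3 and 0.62 ± 0.29 with anti-PD-L1 (adjusted p of 0.805 and 0.593, edgeR).

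*Gbp2*, which helps to disrupt pathogen membranes and vacuoles, was at 13.9, 15.0 and 14.6 CPM in isotype, 24.5, 15.9 and 25.4 CPM with anti-Lag3, 23.3, 34.4 and 13.9 CPM with anti-PD-L1 and 38.1, 40.4 and 39.9 CPM in CB. One anti-PD-L1 sample was at the isotype level, so only anti-Lag3 and CB were free of overlap with isotype. The log2 fold change was 0.60 ± 0.27 (SE) with anti-Lag3 and 0.72 ± 0.28 with anti-PD-L1 (adjusted p of 0.805 and 0.525, edgeR).

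*Ifi47*, an effector of the immunity-related family, was at 74.7, 122 and 106 CPM in isotype, 136, 138 and 129 CPM with anti-Lag3, 137, 133 and 151 CPM with anti-PD-L1 and 146, 140.0 and 181 CPM in CB. Every sample with a blocking antibody was above the highest isotype sample. The log2 fold change was 0.42 ± 0.15 (SE) with anti-Lag3 and 0.48 ± 0.15 with anti-PD-L1 (adjusted p of 0.805 and 0.344, edgeR).

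The other 5 members varied more between mice. *Irgm1* was at 6.64, 9.94 and 5.24 CPM in isotype, 9.46, 9.50 and 22.1 CPM with anti-Lag3, 8.01, 8.36 and 14.6 CPM with anti-PD-L1 and 17.4, 13.4 and 12.8 CPM in CB. Only CB was free of overlap with isotype, and the log2 fold change was 0.91 ± 0.40 (SE) with anti-Lag3 and 0.51 ± 0.40 with anti-PD-L1. Without the highest sample of each antibody group (number 3 in both) these were 0.384 and 0.172. *Irgm2* did not overlap isotype with anti-Lag3 (14.3 to 23.9 CPM against 5.19 to 12.5 CPM) and did with anti-PD-L1 (12.1 to 17.7 CPM), at log2 fold changes of 0.85 ± 0.34 and 0.52 ± 0.34.

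*Gbp7* was at 11.6 to 23.5 CPM in isotype, 22.8 to 40.3 CPM with anti-Lag3, 18.2 to 33.8 CPM with anti-PD-L1 and 22.5 to 43.7 CPM in CB, and every pair of groups overlapped. *Gbp3*, with the fewest reads of the 10 (142 per sample on average), was at 2.77 to 7.78 CPM in isotype and 7.04 to 11.2 CPM with anti-Lag3, and it too overlapped throughout. *Gbp4* had the smallest log2 fold changes and was at 27.6 to 31.7 CPM in isotype, 23.2 to 46.9 CPM with anti-Lag3, 29.4 to 37.0 CPM with anti-PD-L1 and 29.3 to 49.5 CPM in CB.

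For anti-PD-L1 against isotype, 0 of the 10 passed an adjusted p of 0.05 by edgeR, beside 5 of all 15138 genes (0.0330%). Without adjustment 5 of the 10 were below 0.05, all of them higher, beside 3.81% of all genes. The median log2 fold change of the 10 was 0.51, with a range of 0.16 to 1.13, beside a median of 0 over all genes. Anti-PD-L1 did not overlap isotype for *Gbp5*, *Igtp*, *Iigp1* and *Ifi47*, 4 of 10 beside 5.34% of all genes.

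For anti-Lag3 against isotype, 0 of the 10 passed by edgeR, as did 0 of all genes (0%). Without adjustment 8 of the 10 were below 0.05, all higher, beside 2.91% of all genes. Their median log2 fold change was 0.81 and their range 0.08 to 1.30. Anti-Lag3 did not overlap isotype for *Gbp2*, *Gbp5*, *Igtp*, *Irgm2*, *Iigp1* and *Ifi47*, 6 of 10 beside 5.25% of all genes. Both antibodies left isotype without overlap for 4 members (*Gbp5*, *Igtp*, *Iigp1* and *Ifi47*), beside 1.47% of all genes.

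**Figure D3:**
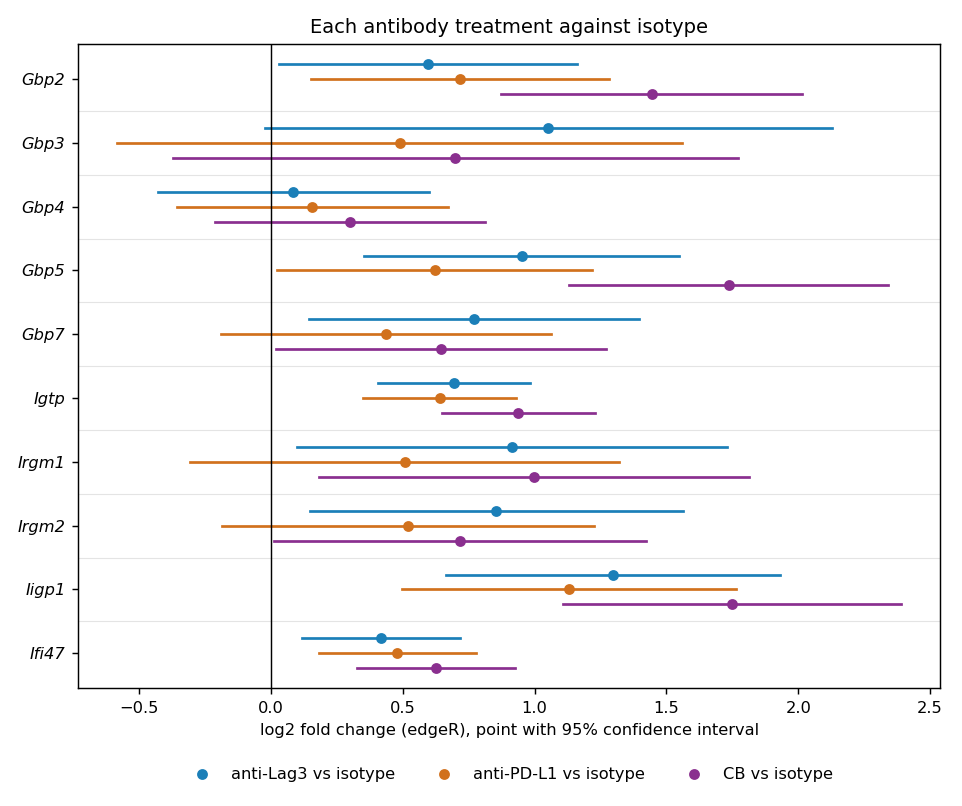
Fitted log2 fold change of each GTPase against isotype (points) with its 95% confidence interval (lines), for anti-Lag3, anti-PD-L1 and CB. With either single antibody the intervals of *Gbp2*, *Gbp5*, *Igtp*, *Iigp1* and *Ifi47* lie above 0, before adjustment over genes, and those of *Gbp3* and *Gbp4* cross 0.

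The question whether the single antibodies differ in these transcripts is put most directly by comparing them with each other. The contrast takes only their group means. Its tests and intervals use a spread and a scaling estimated from all samples, isotype and CB included. Since isotype is not in the contrast, it cannot say which antibody raises a transcript above isotype. By edgeR 0 of the 10 passed (0 at an unadjusted p below 0.05), beside 0 of all genes (0%). By DESeq2's Wald test 0 of the 10 passed, where 1 of all genes was called higher and 9 lower. The group mean was higher with anti-Lag3 for 7 of the 10 and with anti-PD-L1 for *Gbp2*, *Gbp4* and *Ifi47*. The log2 fold change of anti-PD-L1 against anti-Lag3 ran from -0.56 (*Gbp3*) to 0.12 (*Gbp2*), with a median of -0.25, and no member was free of overlap, beside 4.01% of all genes higher and 4.69% lower.

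The 95% intervals set how large a difference these samples leave possible. They were narrow for *Igtp* (-0.34 to 0.23) and *Ifi47* (-0.24 to 0.36). For *Iigp1* the interval was -0.79 to 0.45, for *Gbp5* -0.92 to 0.26, and for *Gbp3*, the widest, -1.63 to 0.50. Differences inside these intervals remain possible with 3 mice per group. The intervals are not adjusted over genes, so their ends do not mark the size that the adjusted test would call.

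For CB against anti-PD-L1, 0 of the 10 passed by edgeR, beside 56 of all genes (0.370%). *Gbp5* came nearest, with a log2 fold change of 1.12 ± 0.29 (SE), a ratio of 2.17 and an adjusted p of 0.0981. It passed by DESeq2's Wald test (adjusted p = 0.0218, beside 0.715% of all genes called higher), and its adjusted p over all alternatives ran from 0.0218 to 0.357. *Gbp2* had 0.73 ± 0.27 and an adjusted p of 0.363. These were the 2 members whose CB samples did not overlap anti-PD-L1, beside 6.94% of all genes, and with *Igtp* (0.30 ± 0.14) they were the 3 below an unadjusted p of 0.05, beside 4.81% of all genes. The other members ran from 0.14 to 0.62, and the median of the 10 was 0.26.

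For CB against anti-Lag3, 0 of the 10 passed by edgeR and 0 by DESeq2, beside 105 of all genes by edgeR (0.694%). *Gbp2* (0.85 ± 0.27, adjusted p = 0.201) and *Gbp5* (0.78 ± 0.29, adjusted p = 0.291) were the 2 below 0.05 without adjustment, beside 4.70% of all genes. With *Ifi47* (0.21 ± 0.14) they were the 3 without overlap, beside 7.68% of all genes. *Gbp3*, *Gbp7* and *Irgm2* had values below 0 (-0.35, -0.13 and -0.14), and the median of the 10 was 0.21. The CB samples are also those of the comparison by which the members were known.

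The interaction, CB minus both single antibodies plus isotype on the log2 scale, is 0 where the effects of the antibodies add. By edgeR 0 of the 10 passed (0 at an unadjusted p below 0.05), beside 0 of all genes (0%). By DESeq2's Wald test 0 of the 10 passed, where 1 of all genes was called higher and 4 lower. Of the 10 values, 7 were below 0, from -0.84 (*Gbp3*) to 0.16 (*Gbp5*), and the median was -0.41. The interval of *Igtp* was -0.80 to 0.01 and that of *Gbp5* -0.67 to 1.00.

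**Figure D4:**
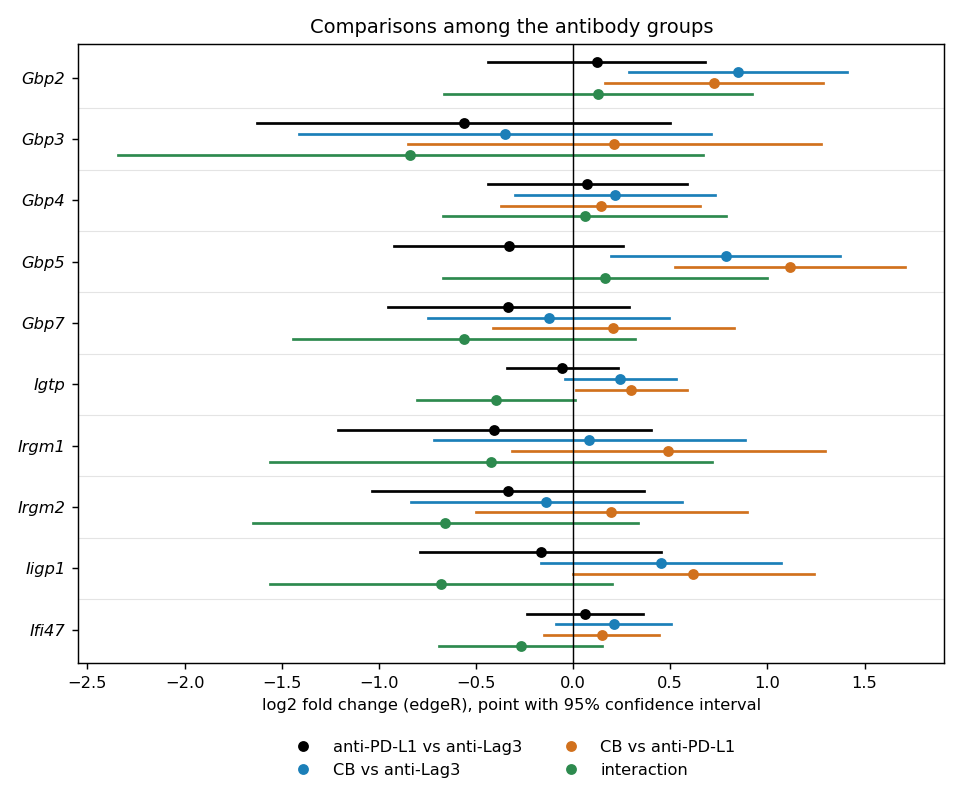
Fitted log2 fold change of each GTPase (points) with its 95% confidence interval (lines) for anti-PD-L1 against anti-Lag3, CB against each single antibody, and the interaction. Intervals of anti-PD-L1 against anti-Lag3 and of the interaction include 0 for all 10 genes, whereas those of CB against each antibody lie above 0 for *Gbp2* and *Gbp5*, before adjustment over genes.

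CB against isotype is given as a description, since its results were known when the members were chosen. The log2 fold changes were 1.75 for *Iigp1*, 1.74 for *Gbp5*, 1.44 for *Gbp2*, 1.00 for *Irgm1*, 0.94 for *Igtp*, 0.72 for *Irgm2*, 0.70 for *Gbp3*, 0.64 for *Gbp7*, 0.63 for *Ifi47* and 0.30 for *Gbp4*. By edgeR's test 5 of the 10 (*Gbp2*, *Gbp5*, *Igtp*, *Iigp1* and *Ifi47*) passed, all higher, where 4.29% of all genes passed and 2.33% were higher. CB did not overlap isotype for these 5 and for *Irgm1* and *Irgm2*, 7 of 10, where 10.4% of all genes were separate and higher.

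Set beside CB, the single antibodies differed from gene to gene. *Igtp* was 38.2 CPM above isotype with anti-Lag3 and 34.4 CPM with anti-PD-L1, against 56.6 CPM in CB. *Iigp1* was 12.6 and 10.3 CPM above isotype, against 20.4 CPM in CB. *Gbp5* was 7.25 and 4.17 CPM above it, against 18.1 CPM in CB, and *Gbp2* 7.43 and 9.38 CPM, against 25.0 CPM. For *Gbp3*, *Gbp7* and *Irgm2* the excess with anti-Lag3 (5.05, 13.7 and 7.93 CPM) was above that in CB (2.94, 10.9 and 6.32 CPM).

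Averaged over the 10 genes, the log2 CPM of each sample was compared with the isotype mean. The isotype samples were at -0.11, 0.07 and 0.04, the anti-PD-L1 samples at 0.45, 0.58 and 0.68, the anti-Lag3 samples at 0.62, 0.70 and 0.99 and the CB samples at 0.92, 0.86 and 1.20. Since the 10 were chosen with CB against isotype in view, the height of CB over isotype here follows in part from that choice. Both single-antibody groups were above the same isotype samples in every sample, they overlapped each other, and CB overlapped anti-Lag3. Erythroid transcripts moved the other way: the 6 markers summed to 241 to 451 CPM in isotype, 216 to 289 with anti-Lag3, 171 to 217 with anti-PD-L1 and 149.7 to 198 in CB. *Hbb-bs* and *Hbb-bt* fell between CB and isotype by 0.75 ± 0.16 and 0.99 ± 0.20 on the log2 scale (edgeR, adjusted p = 0.00509 and 0.00363). *Cd4* fell by 0.50 ± 0.12 and *Cd3e* by 0.39 ± 0.11 (edgeR, adjusted p = 0.00918 and 0.0401), and *Pecam1* by 0.90 ± 0.18 (adjusted p = 0.0034). The authors list *Cd4* among T cell receptor signalling genes that were lower after CB, as they had seen before in strongly signalling cells. The part of these shifts in the GTPase values was not tested.

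**Figure D5:**
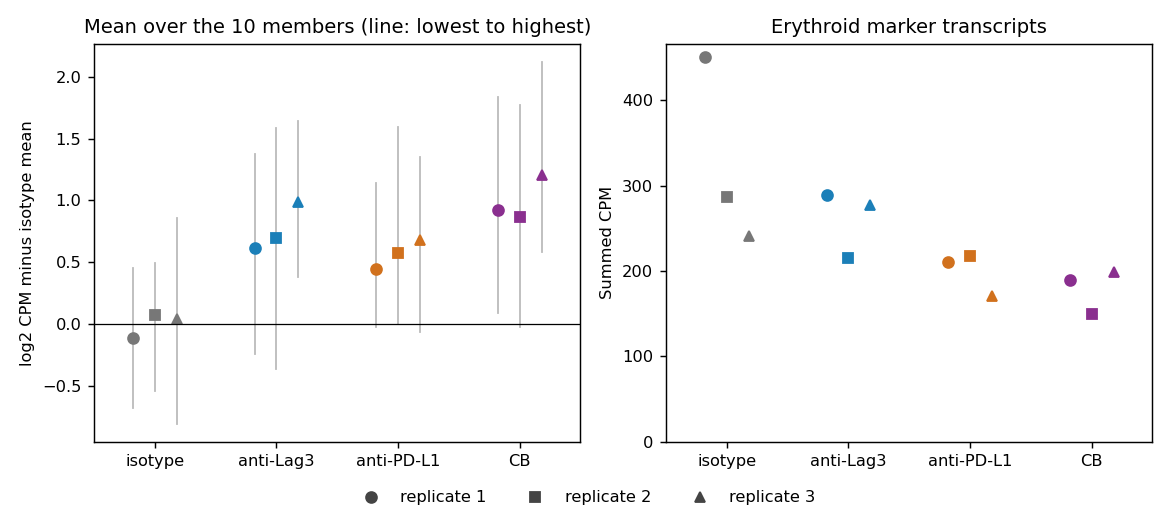
Left, the mean over the 10 GTPases of log2 CPM minus the isotype mean for each mouse, with a grey line from the lowest to the highest gene. Right, the summed CPM of 6 erythroid marker transcripts in the same mice. CB samples lie at 0.86 to 1.20 on the left and at 149.7 to 198 CPM on the right, and isotype samples at -0.11 to 0.07 and at 241 to 451 CPM. The 10 GTPases were chosen with CB against isotype in view.

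Of 22 further genes of these GTPase families, *Mx1* and *Mx2* included, 17 passed the read filter and 0 passed edgeR's test in any of the 7 comparisons. *Gbp10*, *Gvin1* and *Gm4070* had no reads, and *Gbp11* and *Irgc1* had 15 and 12 reads in 1 sample each. Those with at least 30 reads per sample on average were *Gbp8*, *Gbp9*, *Gm12250*, *9930111J21Rik2*, *Irgq*, *Mx1* and *Mx2*. Among these 7, the median log2 fold change was 0.30 with anti-PD-L1, 0.34 with anti-Lag3 and 0.45 in CB. *Gbp8* was at -0.58, -1.43 and -2.11 in the same comparisons.

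*Mx2*, an antiviral GTPase induced by type I interferon, was at 0, 3.10 and 1.06 CPM in isotype, 6.98, 5.94 and 3.47 CPM with anti-Lag3, 4.76, 3.31 and 6.37 CPM with anti-PD-L1 and 5.13, 2.89 and 13.4 CPM in CB. Its log2 fold changes were 1.99 ± 0.89 (SE) with anti-Lag3, 1.80 ± 0.89 with anti-PD-L1 and 2.37 ± 0.90 in CB (adjusted p of 0.805, 0.593 and 0.168). *Mx1* had 1.06, 0.83 and 1.63, with SEs of 0.84 to 0.85.

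*Gm12250*, known as Irgb10 and annotated here as a processed pseudogene, was at 4.73, 4.56 and 10.4 CPM in isotype and at 1.22, 3.59 and 2.14 CPM with anti-PD-L1. This was a log2 fold change of -1.50 ± 0.63 (SE, adjusted p = 0.562), on the other side of 0 from every member. With anti-Lag3 it was at 4.71, 6.48 and 3.31 CPM (-0.44 ± 0.61) and in CB at 9.06, 2.93 and 14.9 CPM (0.45 ± 0.61), both overlapping isotype. *Gm12185*, which shares the spaced GAS and ISRE with *Igtp*, had 0, 12 and 0 reads in isotype, 15, 40 and 29 with anti-Lag3, 1, 0 and 4 with anti-PD-L1 and 60, 65 and 88 in CB. Its CB samples were above all others, and its adjusted p was between 0.311 and 0.917 in the 3 comparisons of CB. *Tgtp1* and *Tgtp2*, near-identical copies between which reads are uncertain, had at most 35 reads in a sample, and *Tgtp2* had 4, 23 and 20 in isotype and 0 in the 6 single-antibody samples.

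*Gbp6* had 0 to 27 reads, *9930111J21Rik1* 0 to 39 and *Gm4841* 0 to 40 in a sample, with no group apart. *Gm4951* had 30, 4 and 35 reads in CB and 0 in the other 9 samples, where a count of 0 allows up to 3 reads per sample. *F830016B08Rik* and *Gm5431* had 38 and 51 reads in a single CB sample, and *Gbp2b* 34 reads in a single anti-PD-L1 sample. At such counts no difference was detectable. *Gbp9*, *9930111J21Rik2* and *Irgq* had log2 fold changes between 0.16 and 0.72 with either antibody and in CB, with SEs of 0.40 to 0.49.

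The ligand and the receptors of interferon-γ did not pass in any comparison. *Ifng*, its gene, had 0 to 122 reads in a sample, and its 3 samples of each group spanned 0.554 to 5.61 CPM in isotype, 0.202 to 3.73 with anti-Lag3, 0 to 6.84 with anti-PD-L1 and 2.50 to 5.63 in CB. *Ifngr1*, the ligand-binding chain, was at 80.9 to 102 CPM in isotype and at 66.1 to 87.3 CPM over the other groups. *Ifngr2*, the signalling chain, had 19 to 201 reads in a sample, with log2 fold changes of -0.11 (anti-Lag3), -0.47 (anti-PD-L1) and -0.12 (CB), each with an SE of 0.75.

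Of the 16 genes fixed for interferon-γ signalling, all tested, 1 passed, *Irf8*, which encodes a transcription factor that acts at ISRE-like sites. It was at 62.5, 72.2 and 60.05 CPM in isotype, 88.1, 85.2 and 68.4 CPM with anti-Lag3, 89.2, 95.3 and 86.9 CPM with anti-PD-L1 and 172, 104 and 145 CPM in CB. It was higher in CB than with anti-Lag3 by 0.80 ± 0.16 on the log2 scale and than in isotype by 1.11 ± 0.16 (edgeR, adjusted p = 0.00907 and 6.84e-05). Over all genes 0.390% were called higher in the first comparison and 2.33% in the second. A single call of 16 is not read as a result about the list. Against anti-PD-L1 the value was 0.64 ± 0.16 (adjusted p = 0.0741), and each single antibody against isotype had 0.31 ± 0.16 (anti-Lag3) and 0.48 ± 0.16 (anti-PD-L1, adjusted p = 0.402).

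*Irf1*, which binds ISRE-like sites, had log2 fold changes against isotype of 0.16 (anti-Lag3), 0.03 (anti-PD-L1) and 0.23 (CB), each with an SE of 0.13, and *Irf9*, a factor of type I interferon signalling, had 0.12, 0.22 and 0.14, each with an SE of 0.18. *Socs1*, the feedback inhibitor of the receptor's kinases, was at 5.61 to 8.04 CPM in isotype and 4.46 to 7.35 with anti-Lag3, and at 9.37 to 17.02 with anti-PD-L1 and 12.6 to 14.2 in CB. The anti-PD-L1 and anti-Lag3 samples did not overlap there, at a log2 difference of 0.96 ± 0.38 that did not pass (adjusted p = 0.802).

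Of 9 genes of type I interferon signalling 7 were tested, and *Ifnar1*, a receptor chain, fell in CB against isotype by 0.88 ± 0.24 on the log2 scale (adjusted p = 0.0332), beside 1.96% of all genes lower. Of 24 type I interferon-stimulated genes, all tested, 2 rose in CB against isotype, beside 2.33% of all genes, and 0 passed in the other 6 comparisons. *Isg15*, a ubiquitin-like modifier, rose by 1.30 ± 0.20 and *Bst2*, which tethers budding virions, by 1.13 ± 0.21 (adjusted p = 0.000194 and 0.00163). With the single antibodies *Isg15* had 0.80 ± 0.20 (anti-Lag3) and 0.65 ± 0.20 (anti-PD-L1), and *Bst2* 0.55 ± 0.21 and 0.53 ± 0.21, none of which passed. The median of the 24 was 0.22 with anti-Lag3, 0.34 with anti-PD-L1 and 0.34 in CB.

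Of 18 other interferon-γ targets, mostly of antigen processing, 17 were tested. *Ly6a*, a surface antigen of activated T cells, rose with anti-PD-L1 against isotype by 0.53 ± 0.09 on the log2 scale (adjusted p = 0.0142, beside 0.0330% of all genes) and in CB by 0.50 ± 0.09 (adjusted p = 0.00106). It was at 450 to 488 CPM in isotype, 556 to 591 with anti-Lag3, 634 to 792 with anti-PD-L1 and 649 to 685 in CB, and its difference between anti-PD-L1 and anti-Lag3, 0.27 ± 0.09, did not pass (adjusted p = 0.802). *Tap2*, a peptide transporter subunit, fell in CB against isotype by 0.59 ± 0.17 (adjusted p = 0.048). The medians of the 17 were 0.08 with anti-PD-L1, 0.03 with anti-Lag3 and 0.05 in CB. The 10 GTPases were chosen with CB against isotype in view, so their medians cannot be ranked against these.

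Of 14 autophagy genes and binding partners of these GTPases, *Gabarap*, whose product helps to direct them to vacuoles, fell in CB against isotype by 0.62 ± 0.13 on the log2 scale (adjusted p = 0.00539). It was at 96.7 to 117 CPM in isotype, 80.4 to 87.4 with anti-Lag3, 74.3 to 94.7 with anti-PD-L1 and 68.9 to 72.0 in CB. The other 13 did not pass in any comparison.

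The genes with the pattern most like that of the 10 GTPases over the 12 samples were *Isg15*, *Cenpw*, *Jmjd6*, *Rps6kb1* and *Utp3*, out of 10431 genes with at least 30 reads per sample. Likeness was the root mean square difference between standardized log2 CPM profiles and the members' mean profile, from 0.345 for *Isg15* to 0.421 for *Utp3*. Among the members it was smallest for *Igtp* (0.325) and largest for *Gbp4* (0.975), but each member is part of the mean profile, so these values cannot be set beside those of other genes. All these profiles share the same 12 libraries. The members were chosen with CB against isotype in view, so genes higher in CB lie near their mean profile in part through that choice. A shared cause was not tested.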

How the data were processed

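QuantSeq 3′ mRNA libraries of 12 sorted samples were sequenced, and the authors trimmed reads with Cutadapt 1.18, mapped them with STAR 2.6.1a to GRCm38 and counted uniquely mapped reads with featureCounts 1.6.4 (versions also in the submitters' processing notes). The annotation release and strand setting are not given in the sources used here. The authors deposited raw read counts for 56691 genes and 114 spike-ins, without normalization, and rlog values, which are log2 values shrunk at low counts. No sample column was left unused. GENCODE names for GRCm38 matched 52073 genes.

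Counts were fitted here with edgeR 4.0.16 in R 4.3.3 (TMM, genes with at least 30 reads in sum, 1 fit of 4 group means, quasi-likelihood tests, Benjamini-Hochberg adjustment over all 15138 genes, threshold 0.05). CPM are TMM-scaled, and intervals are 95%. Each sample was 1 mouse. Alternatives used DESeq2 1.42.0 and limma 3.58.1. The fits were run on simulated data with genes changed between anti-PD-L1 and isotype, as a check of the code. The recovery is not reported here and was not used to judge which changes of the members the tests could call. The study's threshold of 0.2 on the log2 fold change was an alternative.

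The members, lists and comparisons were chosen with earlier results of these data known. Named were all members, every listed family GTPase, pathway genes called in any comparison with 8 fixed signalling genes (1 of them is not reported here), and the 5 genes nearest to the members' mean profile. Marker lists are given as sums, and 5 markers called between CB and isotype were named after their values were seen.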

Additional observations from a re-analysis of the deposited data

How the results depend on the processing

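Alternatives were DESeq2's Wald test against 0 and against a log2 fold change of 0.2, edgeR against 0.2, DESeq2 size factors, no filter on reads, filterByExpr, only the compared groups, no most abundant gene, limma on rlog values, a replicate block and leaving out each sample. Apart from CB against isotype, the number of members called was 0 in each comparison and alternative except as follows. For anti-PD-L1 against isotype 1 (*Igtp*) was called with DESeq2 against 0, with no filter and with the replicate block. Beside it 0.234%, 0.102% and 0.0859% of all genes were called higher. For anti-Lag3 against isotype 1 (*Igtp*) was called with DESeq2 against 0 and with the block, and 2 (*Igtp* and *Iigp1*) with no filter. Here the shares of all genes called higher were 0.0385%, 0.0462% and 0.0532%. For CB against anti-PD-L1, 1 (*Gbp5*) was called with DESeq2 against 0 and with limma on rlog values, beside 0.715% and 0.431% of all genes called higher. The cause was not tested. CB against isotype, the comparison by which the members were known, kept 4 or 5 calls throughout. *Ifi47* was lost with DESeq2 against 0.2 and without isotype sample 1 or CB sample 3. Of all genes, 2.12% (no filter), 2.97% (replicate block), 4.12% (limma) and 5.94% (DESeq2 against 0) were called higher there.

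With the replicate number as a block the adjusted p of *Igtp* was 0.0367 (anti-PD-L1) and 0.0353 (anti-Lag3) against isotype (0.0859% and 0.0462% of all genes called higher). Cells were sorted in batches of 4, but no label ties a number to a batch. The authors describe the second principal component of their data as largely an effect of sort batches. Of 18 pairs with the same number, 2 had a correlation of deviations over 0.1 (range -0.061 to 0.12, 10448 genes). The 36 pairs with other numbers ran from -0.134 to 0.074, and 10 of 12 samples correlated best with a sample of their own number. Over all genes the block gave 13 higher and 10 lower calls for anti-PD-L1 against isotype (5 and 0 without it), 7 and 2 for anti-Lag3 (0 and 0), 71 and 66 for CB against anti-PD-L1 (31 and 25) and 113 and 95 for CB against anti-Lag3 (59 and 46).

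Calls over all genes varied widely. Over the 10 settings other than leaving out a sample, and then over the 12 fits without 1 sample, they ran from 2 to 56 and from 0 to 11 for anti-PD-L1 against isotype (5 in the report), and from 0 to 14 and from 0 to 1 for anti-Lag3 (0). They ran from 0 to 10 and from 0 to 1 for anti-PD-L1 against anti-Lag3 (0), and from 0 to 10 and from 0 to 2 for the interaction (0). For CB they ran from 3 to 178 and from 4 to 59 against anti-PD-L1 (56), from 39 to 280 and from 44 to 135 against anti-Lag3 (105), and from 233 to 918 and from 395 to 712 against isotype (649).

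Of the members' log2 fold changes, 0 reversed under the other settings, and 28 values reversed in fits without 1 sample. None of the reversed values passed. Their ranges over those fits were as follows. For anti-PD-L1 against isotype, *Gbp3* ran from -0.106 (without anti-PD-L1 3) to 1.06. For anti-Lag3 against isotype, *Gbp4* ran from -0.307 (without anti-Lag3 3) to 0.266. For anti-PD-L1 against anti-Lag3, *Gbp2* ran from -0.239 to 0.398, *Gbp4* from -0.109 to 0.464, *Iigp1* from -0.426 to 0.033 and *Irgm1* from -0.741 to 0.122. For CB against anti-PD-L1, *Gbp3* ran from -0.254 to 0.806, *Gbp4* from -0.129 to 0.283 and *Gbp7* from -0.150 to 0.430, each lowest without CB 3. For CB against anti-Lag3, *Gbp4* ran from -0.056 to 0.607, *Gbp7* from -0.483 to 0.051, *Irgm1* from -0.123 to 0.613 and *Irgm2* from -0.273 to 0.140. For the interaction, *Gbp2* ran from -0.146 to 0.490, *Gbp4* from -0.213 to 0.450 and *Irgm1* from -0.712 to 0.107. Values that kept their sign but moved by over 1.5 times were, for anti-PD-L1 against isotype, those of *Gbp2* (0.358 to 0.994), *Gbp4* (0.077 to 0.240), *Gbp7* (0.169 to 0.642), *Ifi47* (0.303 to 0.638), *Irgm1* (0.172 to 0.796) and *Irgm2* (0.212 to 0.738), and, for anti-Lag3, *Gbp3* (0.780 to 1.623), *Gbp7* (0.501 to 0.978), *Ifi47* (0.240 to 0.576), *Irgm1* (0.384 to 1.203) and *Irgm2* (0.545 to 1.072). With 3 mice per group and 142 reads per sample for *Gbp3*, such differences were not detectable.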

Other observations

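*Gbp7* was highest in the mouse numbered 3 in 4 of 4 groups, and *Gbp3*, *Gbp4* and *Igtp* in 3 of 4. *Gbp5* was highest in number 1 in 3 of 4 groups and *Gbp2* in number 2 in 3 of 4. These genes were singled out after their values were seen, and the labels do not say what mice of one number share.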
